A study of Mus musculus with 12 samples.

Results

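The autophagy and lysosome genes described here are 54 of the 23420 genes of the deposited mRNA count table. They are the genes whose symbols name an autophagy-related protein (Atg), a subunit or accessory protein of the vacuolar proton pump (Atp6v, Atp6ap), a cathepsin (Cts and 1 letter) or a lysosome-associated membrane protein (Lamp), together with Rb1cc1, Ulk1, Ulk2, Becn1, Sqstm1, Tfeb and Tfe3, and that had at least 100 reads summed over the 4 mRNA libraries. These names matched 72 genes, of which 18 stayed under that minimum, and beyond that minimum the rule uses no measured value, although it was written with earlier results of these data known. Among the 18 under it, 11 had no read in any mRNA library, including Ctsc, Ctse, Ctsg, Lamp5 and Atp6v0d2. All 54 members passed the filter on low counts that left 13216 genes for testing.

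All libraries came from embryonic fibroblasts of the 129/sv mouse background. Every group carried the same alleles, per1 -/-, per2 -/-, nr1d1 -/- and nr1d2 -/-, and the same PER2-ER transgene, PER2 joined to what is usually the hormone-binding part of the estrogen receptor. The cells received either 1 µM 4-hydroxytamoxifen (4-OHT), a ligand of that receptor, or 0.1% ethanol (EtOH), its solvent, for 4 h. Both treatments were measured by mRNA-seq, by ChIP-seq with a Bethyl antibody to BMAL1 and by sequencing of ChIP input, with 2 libraries in each of the 6 groups, and the question was how PER2 acts on BMAL1 binding and on transcription. Every library carries the transgene, so an effect of PER2-ER and an effect of 4-OHT itself cannot be told apart, and the labels do not give the transgene's promoter, the number of clones or whether replicates were separate cultures. The p-values below therefore set the difference between treatments against the spread between libraries of a group, and that spread may be technical.

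Macroautophagy encloses cytoplasm in a membrane that fuses with the lysosome. The ULK kinase complex starts the process, a lipid kinase complex with BECN1 and ATG14 marks the membrane, ATG9 vesicles and ATG2 proteins supply lipid, and ubiquitin-like conjugation (ATG3, ATG5, ATG7, ATG10, ATG12, ATG16L1) attaches LC3 proteins to it. The vacuolar ATPase acidifies the lysosome, its V1 sector hydrolysing ATP in the cytosol and its V0 sector carrying protons through the membrane, which lets cathepsins digest the cargo. Clock-controlled and lysosomal genes often hold the E-box letters CACGTG near their starts, and both the BMAL1:CLOCK pair and the lysosomal regulators TFEB and TFE3 bind DNA with this core.

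The mRNA libraries held between 60267540 and 89695667 counted reads and the BMAL1 libraries between 13502201 and 20712373 reads, and the inputs had between 12481308 and 33454366. Reads from the targeted genes were counted in every mRNA library. Per1 lay between 36.7 and 45.4 CPM (counts per 1000000 counted reads of the library) and Per2, whose counts cannot separate the transgene from the endogenous locus, between 550 and 609. Nr1d1 was at 49.2 and 56.0 CPM under EtOH against 16.4 and 17.5 under 4-OHT, and Nr1d2 at 83.4 and 92.6 against 39.4 and 35.3. Which parts of the disrupted genes these reads cover was not tested. The fibroblast label was checked against markers. The 10 fibroblast markers summed to between 27838 and 30383 CPM, most of it Fn1, Col1a1 and Col1a2. Among them Pdgfra lay between 11.1 and 13.3 CPM and Thy1 had 0 reads. The 10 myeloid markers summed to at most 22.3 CPM (most of it Cd14, with Emr1 and Tyrobp at 0 reads). The 6 endothelial markers summed to at most 0.597 CPM (Cdh5 and Tie1 at 0 reads) and 7 epithelial markers to at most 16.7 CPM, most of it Cdh1.

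BMAL1 was found within 1 kb of the starts of 17 of the 54 members (31.5%) in cells given EtOH. On the scale of library totals the median fall of signal at these sites with 4-OHT was 73.6%. Each of the 17 had 1 deposited region within 1 kb of the start, taken as the upstream end of the outermost annotated exon. Of these regions, 11 covered the start and 5 also lay within 1 kb of another gene's start. For reference, 21.5% of 13197 tested genes had a region within 1 kb. Among tested genes above the median CPM the share was 28.9%, and 15 of the 37 members above it had a region. Bound members were found in most roles. They comprised 7 of 17 V-ATPase genes (Atp6v1a, Atp6v1b2, Atp6v1c1 and Atp6v1h of the V1 sector and Atp6v0b, Atp6v0d1 and Atp6v0e of the V0 sector), 3 of 11 conjugation genes (Atg3, Atg5 and Atg10), 3 of 10 cathepsins (Ctsa, Ctsd and Ctsl), Atg14 and Atg2b of the 6 nucleation and lipid-transfer genes, Ulk2 of the 4 initiation genes, and Lamp1 of the 3 Lamp genes. Neither Tfeb nor Tfe3 had a region within 10 kb, and the nearest to Sqstm1, the cargo receptor p62, lay 2315 bp upstream, with 23.0 and 28.4 reads per 10000000 library reads under EtOH and 5.82 and 7.72 under 4-OHT. In all, 35 members had no region within 10 kb. The 4740 regions are named as peaks of the control cells, so a site bound with 4-OHT alone would not be among them.

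Most of the strong sites carried E-boxes in the window examined, and 6 of their sequences are shown because they hold CACGTG. BMAL1:CLOCK, TFEB and TFE3 all bind DNA with this core, and which protein was on these letters was not tested. The sequences are the strands read in the direction of transcription, from RefSeq promoters of GRCm38.p6, the assembly that mm10 denotes, with each CACGTG in capitals. They span Lamp1 (chr8:13159041-13159160, plus strand), Atg3 (chr16:45158709-45158828, plus), Atp6v0b (chr4:117887330-117887449, minus), the second RefSeq start of Ctsa (chr2:164833653-164833783, plus), Ctsd (chr7:142387871-142387947, minus) and Atg14 (chr14:47568430-47568554, minus).
Lamp1: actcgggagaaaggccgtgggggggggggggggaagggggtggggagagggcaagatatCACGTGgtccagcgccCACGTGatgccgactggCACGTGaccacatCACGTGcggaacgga
Atg3: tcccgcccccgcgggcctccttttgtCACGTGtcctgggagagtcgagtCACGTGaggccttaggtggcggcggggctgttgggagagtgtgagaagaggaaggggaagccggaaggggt
Atp6v0b: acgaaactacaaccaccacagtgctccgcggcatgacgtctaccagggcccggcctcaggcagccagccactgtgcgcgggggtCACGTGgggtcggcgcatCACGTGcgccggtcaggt
Ctsa: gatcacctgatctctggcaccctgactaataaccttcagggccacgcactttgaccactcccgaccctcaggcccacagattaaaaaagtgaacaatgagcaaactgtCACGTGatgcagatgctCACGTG
Ctsd: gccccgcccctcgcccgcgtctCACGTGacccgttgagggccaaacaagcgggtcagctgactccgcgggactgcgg
Atg14: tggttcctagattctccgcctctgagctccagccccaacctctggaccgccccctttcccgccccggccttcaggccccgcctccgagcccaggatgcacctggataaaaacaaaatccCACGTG

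Lamp1, which encodes an abundant glycoprotein of the lysosomal membrane, had 4 E-boxes within its RefSeq window, the 300 bases from 250 before to 50 after the start. Their first bases lay 61, 45, 28 and 15 bases before the RefSeq start, with 10, 11 and 7 bases between neighbours, and all 4 were inside the BMAL1 region. Of 32851 such windows in the RefSeq table, 8 held 4 or more, as did 4 of 2146 tested genes with a region within 1 kb. Atg3, the enzyme that passes LC3 to its lipid, had 2 E-boxes 17 bases apart, Atp6v0b, a proteolipid of the V0 ring, had 2 separated by 12 bases, and the second start of Ctsa, which encodes the protective protein cathepsin A, had 2 separated by 11 bases. Each of these pairs also lay inside the BMAL1 region of its gene. The Ctsa region is 657 bp from the outermost start and covers the RefSeq start 901 bp downstream of it.

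RefSeq windows were found for 41 members. CACGTG, which reads the same on both strands, was in the windows of 11 of the 14 bound members that had one, and 5 of them held 2 or more. Among 27 members without a region it was in 2, Atg7 (at an inner start) and Ctsf. For reference, 7.15% of all windows held CACGTG and 0.594% held 2 or more. The shares were 32.0% and 4.75% of 2146 tested genes with a region within 1 kb, and 5.96% and 0.227% of 7496 without. TCACGTG on either strand, which contains CACGTG, was in 9 of the 14 bound members' windows. It was in 3.77% of all windows and in 20.2% of those 2146 tested genes with a region. The E-boxes of Lamp1, Atg3, Atp6v0b, Ctsa, Atg14, Atg5 and Atp6v0d1 were inside the region, as was the nearer of 2 at Ctsd. Those of Atp6v0e, Atp6v1a and Ctsl lay in the window but outside the region. The windows of Atg10, Atg2b and Ulk2 did not contain these letters, which says nothing of other letters or of bases outside the window. Atp6v1h, Atp6v1c1 and Atp6v1b2 were not matched to a window.

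**Figure D1:**
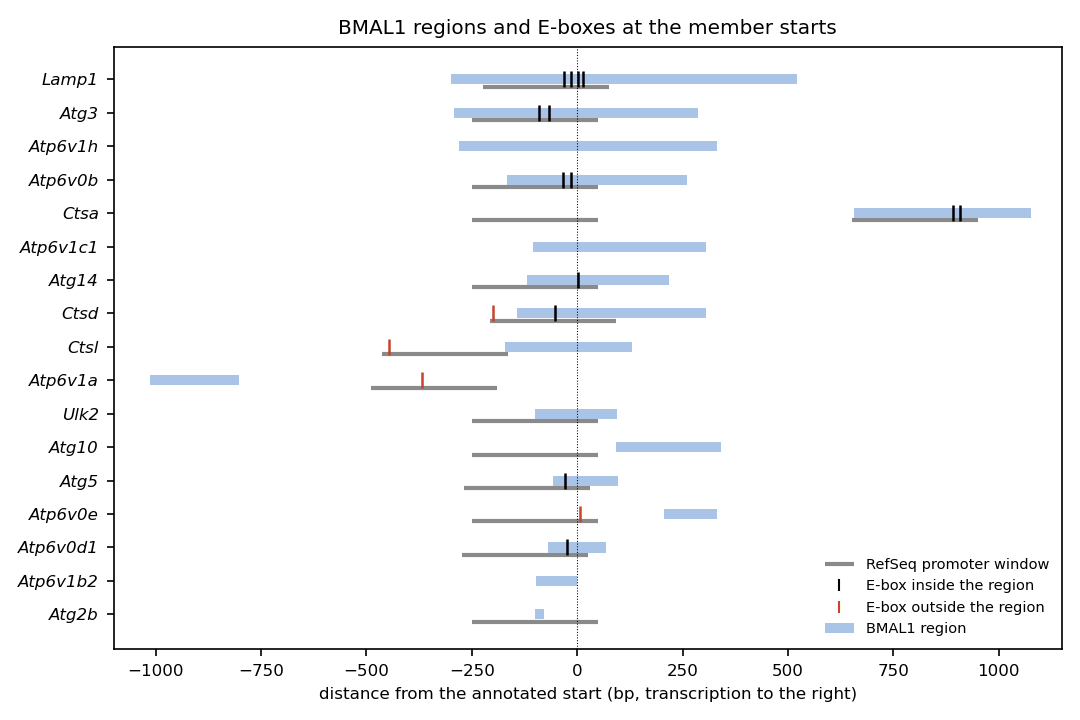
Map of the 17 bound members, ordered by BMAL1 signal with EtOH. The horizontal axis is the distance in bp from the annotated start with transcription to the right, blue bars are BMAL1 regions, grey lines are RefSeq windows and ticks are E-boxes inside (black) or outside (red) the region. The 4 E-boxes of Lamp1 cluster at the start, the pair of Ctsa lies at its second start, and 11 regions cover the annotated start.

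With 4-OHT the signal at 15 of the 17 member regions fell (edgeR, adjusted p below 0.05, with library totals as the scale), 0 rose and 2 were not called. This is close to the background, since 93.8% of all 4740 regions were called lower and 0.0% higher on the same scale. The median log2 change was −1.92 at the member regions and −1.66 over all regions. Signal is given as RP10M, the reads in a region for every 10000000 reads of the library, whatever the length of the region. Libraries of the 2 treatments did not overlap at 15 member regions, which held for 98.0% of all regions. Scaling to the regions themselves (TMM factors) sets the shared change to about 0, with a median of 0.02 over all regions and −0.23 over the members. On that scale 4 member regions were called lower (background 4.81%), those of Lamp1, Atg3, Atp6v1h and Atp6v0b, and 0 higher (background 1.39%). With library totals DESeq2 called 13 lower (background 70.2%), and edgeR called 9 lower after the change of the inputs was subtracted (background 50.5%). A loss of cells with bound BMAL1 and less BMAL1 bound per cell cannot be told apart in such bulk libraries.

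At Lamp1 (chr8:13158835-13159656, covering the start) the signal was 657 and 597 RP10M under EtOH and 114 and 119 under 4-OHT. It was 5.36-fold lower with 4-OHT (log2 −2.42, SE 0.12; edgeR adjusted p = 1.01e-91). This was the highest member region, 39th of 4740 by EtOH signal, and its lower EtOH library was still far above both 4-OHT libraries. The inputs there held 11.6 and 4.25 RP10M with EtOH and 12.0 and 8.97 with 4-OHT, so the signal remained 11.8-fold over input with 4-OHT, from 92.1-fold with EtOH (edgeR adjusted p = 3.24e-24 for 4-OHT ChIP over input).

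Atg3 (chr16:45158537-45159114) had 369 and 356 RP10M with EtOH and 66.2 and 71.5 with 4-OHT, 5.23-fold lower (log2 −2.39, SE 0.13; edgeR adjusted p = 8.87e-69). Its groups were far apart and its replicates close. This region also covers the start of Slc35a5 (chr16:45158673), a solute carrier gene.

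The proton pump genes had both the largest and the smallest log2 change of signal among the members. Atp6v0b (chr4:117887068-117887496) had 202 and 149 RP10M with EtOH and 21.8 and 30.4 with 4-OHT. That was the largest fold decrease among the 17 (6.49-fold, log2 −2.70, SE 0.18; edgeR adjusted p = 8.85e-50). Atp6v1h (chr1:5082894-5083503), which encodes a regulatory V1 subunit, had 193 and 196 RP10M with EtOH and 34.9 and 38.1 with 4-OHT (log2 −2.40, SE 0.16; edgeR adjusted p = 1.09e-46). In both, the EtOH libraries were several-fold above the 4-OHT libraries.

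Atp6v1c1, a V1 subunit that helps tie the sectors together, had 104 RP10M in each EtOH library and 24.0 and 25.1 with 4-OHT (log2 −2.07, SE 0.21). Atp6v1a, the catalytic subunit, had 24.4 and 19.8 RP10M with EtOH and 9.46 and 8.69 with 4-OHT (log2 −1.28, SE 0.36), and Atp6v1b2, the other nucleotide-binding subunit of the V1 head, had 8.89 and 7.94 with EtOH and 0.728 and 2.90 with 4-OHT (log2 −2.01, SE 0.61). The groups did not overlap at any of these 3, and the last rests on 12, 14, 1 and 6 reads. The Atp6v1a region (chr16:44139821-44140033) lies 802 bp upstream of the Atp6v1a start and is nearer to the start of Naa50, at chr16:44139809. The Atp6v1b2 region is within 1 kb of the start of Slc18a1.

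In the V0 sector, Atp6v0e, a small membrane subunit, had 15.6 and 11.3 RP10M with EtOH and 8.73 and 1.45 with 4-OHT (log2 −1.56, SE 0.47; edgeR adjusted p = 0.00107). Its 4-OHT libraries were both lower but spread widely, and without 4-OHT replicate 2 the edgeR adjusted p was 0.231. Atp6v0d1, the subunit that links the V0 ring to the V1 stalk, had 9.63 and 14.7 RP10M with EtOH and 10.2 and 6.28 with 4-OHT. Here the groups overlapped and the change was not called (log2 −0.65, SE 0.42; edgeR adjusted p = 0.127), although it was without 4-OHT replicate 1 (adjusted p = 0.048). With TMM factors the log2 change of Atp6v0d1 was 1.02, of the opposite sign and also not called.

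At the 3 bound cathepsin genes the signal fell by similar amounts. Ctsa (chr2:164833529-164833949) had 104 and 105 RP10M with EtOH and 25.5 and 29.0 with 4-OHT (log2 −1.92, SE 0.20). Ctsd (chr7:142387564-142388013), an aspartic protease, had 53.3 and 45.4 RP10M with EtOH and 13.8 and 12.1 with 4-OHT (log2 −1.93, SE 0.30), and Ctsl (chr13:64370177-64370476), a cysteine protease, had 40.7 and 30.6 with EtOH and 13.8 and 5.79 with 4-OHT (log2 −1.94, SE 0.33). None of these groups overlapped, and the largest edgeR adjusted p of the 3 was 1.46e-08. The Ctsa region also covers the start of Neurl2 (chr2:164833596). Of the 5 genes that share a region with a member (Gskip with Atg2b is the fifth pair), 4 were tested in mRNA and none was called, with log2 changes from −0.08 (Naa50) to −0.01 (Gskip). The Atg2b region (chr12:105685320-105685341) lies 79 bp from the start of Atg2b and nearer to that of Gskip, at chr12:105685352.

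The remaining autophagy regions were weaker. Atg14, the subunit that directs the lipid kinase to autophagy, had 60.7 and 50.5 RP10M with EtOH and 19.6 and 13.5 with 4-OHT (log2 −1.77, SE 0.28), and Atg5, which is joined to ATG12 in the conjugate that recruits LC3, had 17.8 and 19.8 with EtOH and 2.91 and 8.69 with 4-OHT (log2 −1.57, SE 0.40). Atg10, the enzyme that joins ATG12 to ATG5, had 20.7 and 21.5 RP10M with EtOH and 3.64 and 12.1 with 4-OHT (log2 −1.30, SE 0.37). In these 3 the EtOH libraries were above both 4-OHT libraries, while the 4-OHT libraries of Atg5 and Atg10 differed from each other by more than the EtOH libraries did.

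Ulk2, a kinase of the initiation complex, had 22.2 and 21.5 RP10M with EtOH and 8.01 and 9.66 with 4-OHT (log2 −1.28, SE 0.36; edgeR adjusted p = 0.000517). The groups did not overlap, but the inputs were also lower with 4-OHT, at 1.60 and 0.598 RP10M against 2.18 and 2.83 with EtOH, and the signal was 8.19-fold over input with EtOH and 9.60-fold with 4-OHT. With the change of the inputs subtracted its log2 change was 0.23 (edgeR adjusted p = 0.781). Atg2b, a lipid-transfer protein, had a region of 22 bp with 8.15 and 1.70 RP10M under EtOH and 0.728 and 2.90 under 4-OHT. Its groups overlapped on 11, 3, 1 and 6 reads and it was not called (edgeR adjusted p = 0.115), without EtOH replicate 2 it was (adjusted p = 0.022), and without EtOH replicate 1 its log2 change was 0.23.

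**Figure D2:**
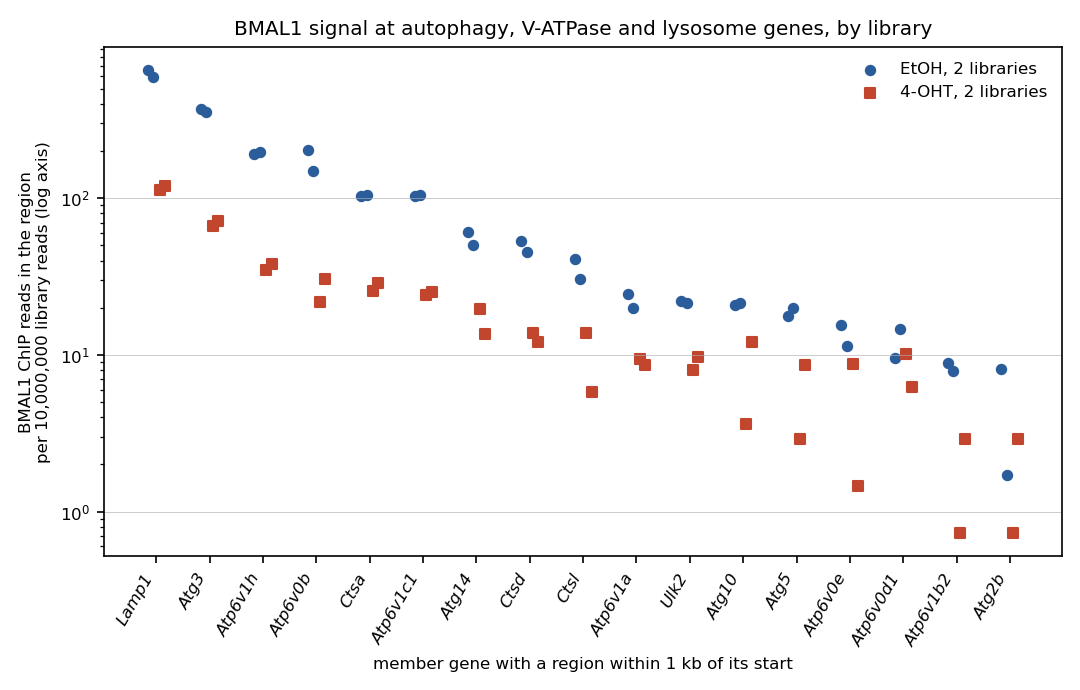
BMAL1 signal at the 17 bound members in each library, in reads in the region per 10000000 library reads on a log axis, for EtOH (blue circles) and 4-OHT (red squares). The 4-OHT points lie below both EtOH points for 15 members and overlap with them for Atp6v0d1 and Atg2b, and scaling to the regions in place of the library totals reverses the sign for 5 of the called members (Atp6v1a, Ulk2, Atg10, Atg5 and Atp6v0e).

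The member regions were also set beside all regions of like strength, as a description, since the split uses the EtOH signal from which the change itself is measured. The 9 member regions above the median EtOH signal of all regions (23.7 RP10M) had a median log2 change of −2.07, against −1.84 for all 2369 such regions, and all 9 were called lower. The 8 weaker ones had a median of −1.29, against −1.46 for all 2371 weaker regions, and 6 of 8 were called lower where 87.7% of all weaker regions were. The median member region had 35.7 RP10M with EtOH. Regions were called on EtOH-treated cells, so all 17 being above input with EtOH in edgeR (background 99.5%) follows from their choice, and 15 of 17 were with 4-OHT (background 80.6%), the exceptions being Atp6v1b2 (adjusted p = 0.069) and Atg2b (adjusted p = 0.084). The median fold over input of the member regions went from 19.1 with EtOH to 4.39 with 4-OHT, and that of all regions from 12.2 to 3.68. In the inputs themselves edgeR called 0 of the 17 member regions (background 0.0%). At an unadjusted p below 0.05 there were 0 of the 17 and 218 of all 4740 regions, too few to set the members apart.

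The members' mRNAs were expressed over a wide range, led by lysosomal genes. On the length-corrected scale (RPKM, CPM per kb of exon) the EtOH level ran from 0.352 for Atp6v0a4, an a-subunit best known from kidney, to 1022 ± 19.6 (SD, n = 2) for Lamp1, with a median of 22.9 against 11.2 for all tested genes. Ctsd followed Lamp1 at 325 ± 9.15 and Ctsl at 285 ± 4.25 RPKM, then Lamp2 at 247 ± 4.59 and Sqstm1 at 210 ± 1.89 (SD, n = 2 each). Of these neighbours in the order, each was above the next by more than the spread between its libraries. Bound members had a median of 62.1 RPKM and members without a region 13.99.

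**Figure D3:**
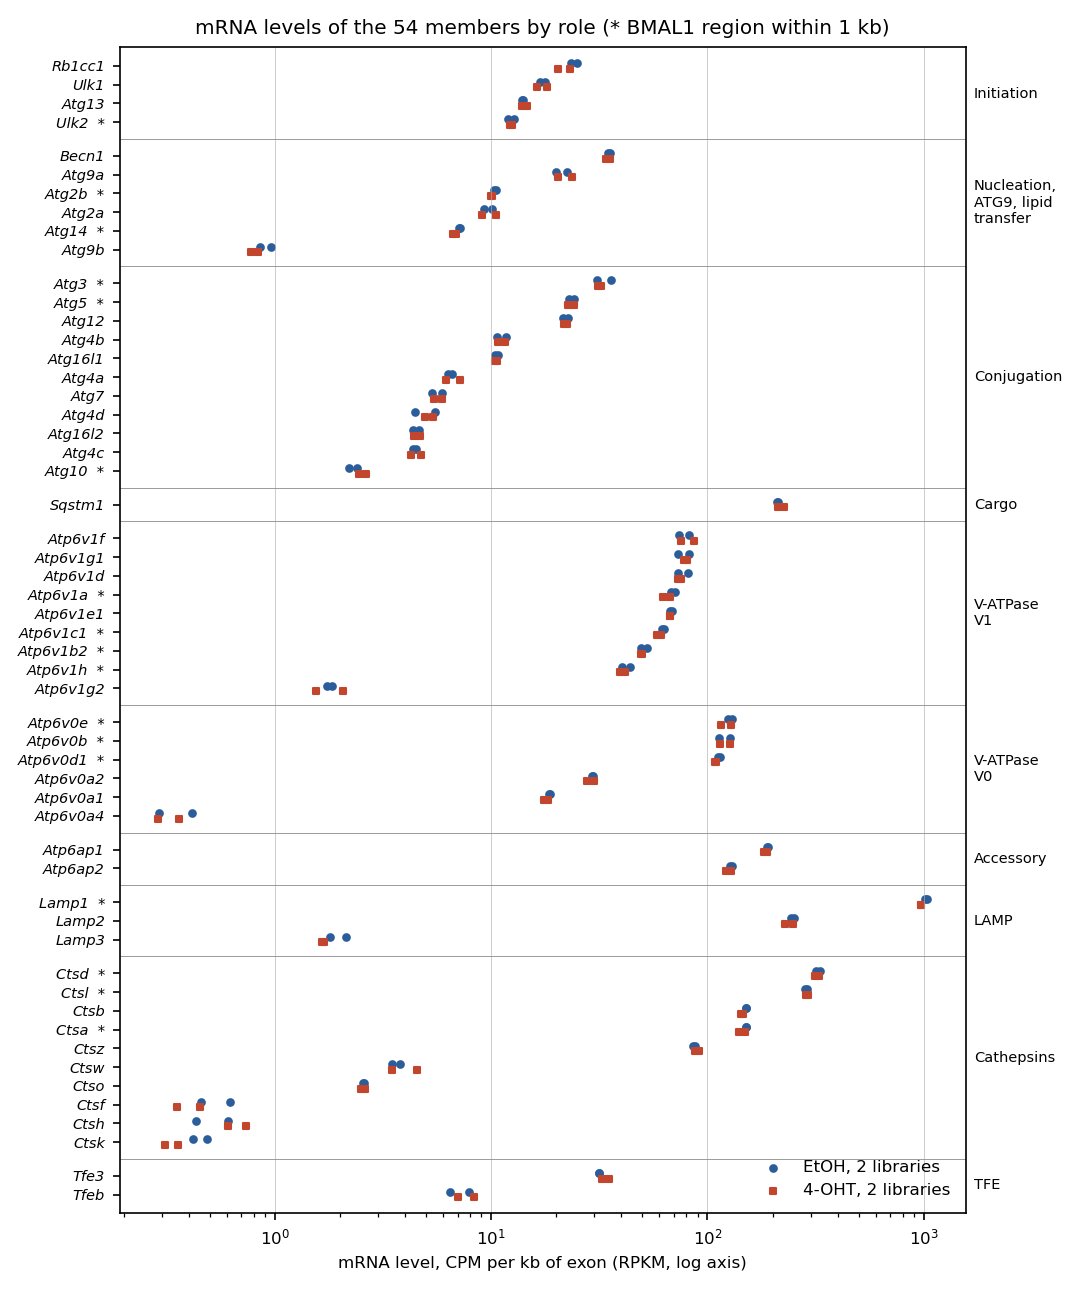
mRNA level of the 54 members in each library, in RPKM on a log axis, grouped by role and ordered by the EtOH level, with EtOH as blue circles and 4-OHT as red squares. Lamp1 is highest near 1022 RPKM, 3 cathepsins and Atp6v0a4 lie below 1 RPKM along with Atg9b, and the points of the 2 treatments lie close together for nearly every gene.

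After 4 h of 4-OHT no change of mRNA passed the test in any of the 54 members. edgeR called 0 of 54 at an adjusted p below 0.05 (background 2.44% of 13216 tested genes, 0.802% higher and 1.63% lower), the lowest member value being 0.376, and DESeq2 also called 0 (background 1.81%, 0.459% higher and 1.35% lower, lowest adjusted p 0.665). At an unadjusted p below 0.05 there were 2 members, Rb1cc1 and Lamp3, where 10.1% of tested genes were. The median log2 change was −0.01 over the members and 0.00 over all tested genes, with 21 members above 0 and 33 below. For 45 of the 54 members the change was within 0.1 of 0 on the log2 scale, against a smaller share, 64.8%, of tested genes. The 4-OHT libraries lay below both EtOH libraries in 15 members (background 18.3%) and above them in 4 (background 18.7%), and the groups overlapped in 35. The 95% interval of the fit was inside ±0.5 for 50 members.

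Among the 17 bound members the log2 change was within 0.1 for 16, with a median of −0.05 (3 above 0 and 14 below), and Atg10 was the exception at 0.15. Their 95% intervals were inside ±0.25 for the same number, and the lowest bound of any of them was a fall of 14.8% (Atg14). All 2837 tested genes with a region within 1 kb had a median of 0.00 and 2.86% of them were called, and the 37 members without a region had a median of 0.00. Of the 15 members whose BMAL1 signal fell, 0 were called in mRNA by edgeR or DESeq2, and 0 had an unadjusted p below 0.05 in edgeR. In 7 of the 17 bound members both 4-OHT libraries were below both EtOH libraries, in 1 they were above, and in 9 they overlapped (background 18.3% below and 18.7% above).

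**Figure D4:**
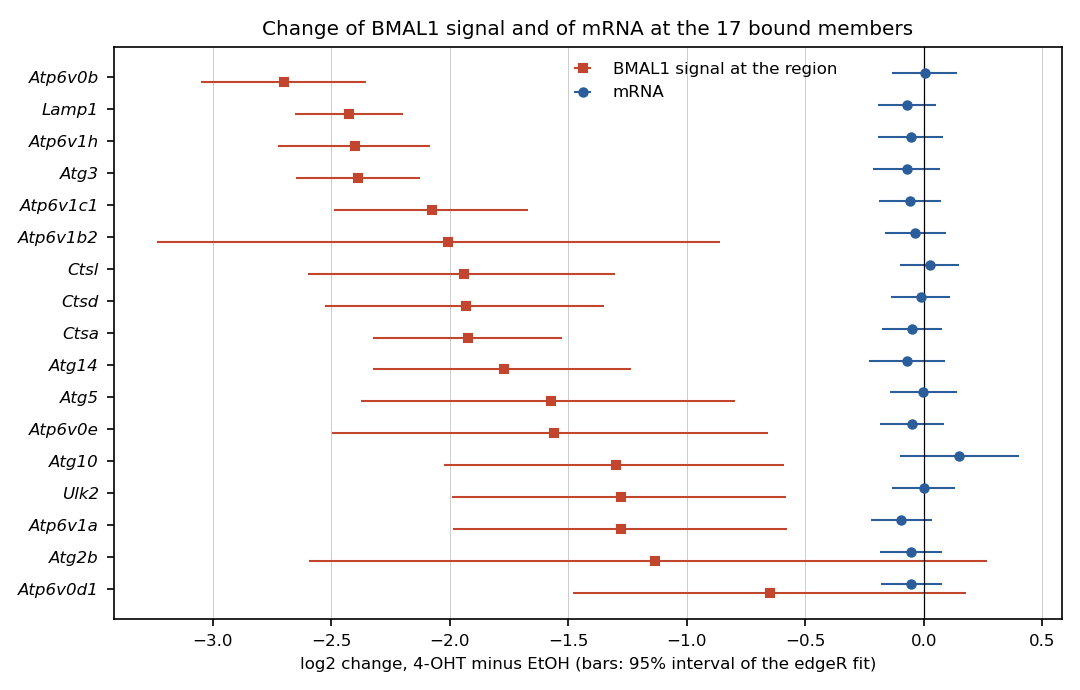
Log2 change with 4-OHT of BMAL1 signal (red squares, on library totals) and of mRNA (blue circles) for the 17 bound members, ordered by the change in signal, with bars for the 95% interval of each edgeR fit. The signal changes span −2.70 (Atp6v0b) to −0.65 (Atp6v0d1), the mRNA changes span −0.10 (Atp6v1a) to 0.15 (Atg10), and with TMM scaling of the regions 5 of the called signal changes turn positive (Atp6v1a, Ulk2, Atg10, Atg5 and Atp6v0e).

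Lamp1 mRNA was at 2273 and 2336 CPM with EtOH and at 2184 and 2201 with 4-OHT. Both 4-OHT libraries were lower, by 4.87% in the fit, which was not past the test (log2 −0.07, 95% interval −0.19 to 0.05; edgeR adjusted p = 0.804). Lamp2, which also takes part in chaperone-mediated autophagy, was at 1028 and 1001 CPM with EtOH and 1027 and 943 with 4-OHT, overlapping groups. Lamp3, best known from dendritic cells and lung, had 6.04 and 7.09 CPM with EtOH and 5.61 and 5.54 with 4-OHT (log2 −0.23; edgeR adjusted p = 0.457), lower in both 4-OHT libraries but not called.

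Within the initiation complex, Rb1cc1 (the scaffold FIP200) was the member with the lowest p. It had 166 and 176 CPM with EtOH and 164 and 143 with 4-OHT (log2 −0.16, SE 0.07; edgeR adjusted p = 0.376). The 4-OHT library of replicate 1 was close to the EtOH libraries and that of replicate 2 was lower, and without 4-OHT replicate 1 the gene was called (log2 −0.26, adjusted p = 0.028). Ulk2, the bound member of this group, had 69.6 and 73.8 CPM with EtOH and 72.4 and 70.8 with 4-OHT, fully overlapping. Ulk1, its paralog kinase, had a log2 change of 0.00, and Atg13, their partner, showed 0.04, the highest of the group, with 49.6 and 50.3 CPM against 49.9 and 52.5.

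In nucleation and lipid transfer, Becn1 had the highest EtOH level, at 35.0 ± 0.434 RPKM (SD, n = 2), and a log2 change of −0.01, with 71.7 and 70.4 CPM against 69.0 and 72.2 (overlapping). Atg14 was at 24.7 and 24.6 CPM with EtOH and 23.1 and 23.8 with 4-OHT, and Atg2b at 107 and 105 with EtOH and 102 and 103 with 4-OHT. In both genes the 4-OHT libraries lay just below the EtOH libraries, by 4.78% and 3.67% in the fit, without passing the test (edgeR adjusted p = 0.877 and 0.885). Atg9a, which spans the membrane of the vesicles, had the highest log2 change of the group (0.06) at 84.4 and 74.8 CPM with EtOH and 76.8 and 89.3 with 4-OHT, and Atg9b the lowest (−0.17) at 3.74 and 3.34 CPM against 3.04 and 3.27. The first overlapped, the second did not, and neither was called.

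Among the 11 conjugation genes the median log2 change was 0.01, with 7 above 0 and 4 below. Atg3 had 62.3 and 72.0 CPM with EtOH and 64.6 and 63.0 with 4-OHT (log2 −0.07, the lowest of the 11), Atg5 had 54.1 and 56.7 against 57.0 and 53.6, and Atg10 had 3.85 and 3.53 against 4.26 and 3.96 (log2 0.15, the highest). Groups overlapped for the first pair, and Atg10 was slightly higher with 4-OHT on only 211 to 358 reads a library. Atg7, Atg12, Atg16l1, Atg16l2, Atg4b, Atg4c and Atg4d had log2 changes between −0.01 and 0.06, none of them called. The row named Atg4a (log2 0.05) lies at chr3:103643953-103646068 as a single exon, where RefSeq places the pseudogene Atg4a-ps while the gene itself is on the X chromosome, so its reads are of uncertain origin. Sqstm1, the cargo receptor, had 423 and 418 CPM with EtOH and 422 and 449.8 with 4-OHT (log2 0.05), overlapping.

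Of the 17 V-ATPase genes 13 had a log2 change below 0, against 6489 of 13216 tested genes, a smaller share. The median of the 17 was −0.04 and 0 were called (edgeR, background 2.44%, lowest adjusted p 0.717, 0 at an unadjusted p below 0.05, and 0 called by DESeq2). Atp6v1a had the lowest value of the V1 sector, at 278 and 268 CPM with EtOH and 265 and 245 with 4-OHT (log2 −0.10, 95% interval −0.22 to 0.03). Atp6v1c1 was at 129 and 132 CPM with EtOH and 128 and 123 with 4-OHT (log2 −0.06), with both 4-OHT libraries lower in each of these genes. Atp6v1h (86.8 and 79.2 CPM against 82.3 and 77.5) and Atp6v1b2 (144 and 135 against 137 and 135) overlapped between treatments. Atp6v1f, a central rotor subunit, had a level of 78.1 ± 5.56 RPKM, which did not differ beyond the spread from Atp6v1g1 (77.4 ± 6.32) and Atp6v1d (77.3 ± 5.62; SD, n = 2 each). It also had the highest log2 change of the sector (0.05), at 52.1 and 47.1 CPM with EtOH and 47.8 and 54.9 with 4-OHT, overlapping.

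In the V0 sector, Atp6v0e had the highest mean level (127 ± 4.20 RPKM, SD, n = 2), within the spread of Atp6v0b (120.4 ± 9.62), with 103 and 98.6 CPM against 92.3 and 103. Atp6v0b was at 127 and 113 CPM with EtOH and 114 and 126 with 4-OHT, and Atp6v0d1 at 185 and 181 against 175 and 178. Only the last of these 3 had both 4-OHT libraries lower (log2 −0.05; edgeR adjusted p = 0.885). Atp6v0b, with the largest fold decrease of BMAL1 signal among the bound members, had a log2 change of mRNA of 0.00 with a 95% interval of −0.13 to 0.14. The widest interval of the sector belonged to Atp6v0a4 (log2 −0.09, 95% interval −0.51 to 0.33), at 0.956 and 1.35 CPM against 0.947 and 1.18, on 66 to 107 reads a library. The accessory proteins Atp6ap1 and Atp6ap2 had log2 changes of −0.04 and −0.03 at 190 ± 1.61 and 128 ± 1.80 RPKM (SD, n = 2 each). Atp6ap1 had 413 and 418 CPM with EtOH and 398 and 412 with 4-OHT, just apart, and Atp6ap2 had 307 and 301 against 305 and 288, overlapping. Atp6v0c, the main subunit of the proton-carrying ring, is under the read minimum with 6, 0, 7 and 2 reads. Its row overlaps that of the pseudogene Atp6v0c-ps2 on the same strand, so these reads do not give its level.

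The cathepsins with high expression stayed near 0 and those with the fewest reads varied most. Ctsd had 647 and 622 CPM with EtOH and 614 and 643 with 4-OHT (log2 −0.01), Ctsl 567 and 555 against 576 and 565 (log2 0.02), and Ctsa 545 in each EtOH library against 509.6 and 543 (log2 −0.05). The groups overlapped for Ctsd and Ctsl and were apart by a small margin for Ctsa. Ctsb, a cysteine protease with no BMAL1 region here, was 4.39% lower in the fit (edgeR adjusted p = 0.837). The largest changes of any member, in Ctsf (log2 −0.42), Ctsk (−0.41) and Ctsh (0.37), came from 32 to 108 reads a library, and their edgeR adjusted p were 0.552, 0.689 and 0.628. Ctsf was at 0.899 and 1.22 CPM with EtOH and 0.890 and 0.696 with 4-OHT, and Ctsh at 0.984 and 0.702 with EtOH against 0.990 and 1.19. In both the libraries of the treatments were apart by less than the replicates of a group. Ctsk was at 0.618 and 0.719 CPM with EtOH and lower, at 0.459 and 0.531, with 4-OHT.

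The transcription factors Tfe3 and Tfeb, master regulators of lysosomal genes, were the group with the highest median (log2 0.10). Tfe3 had 114 and 115 CPM with EtOH and 119 and 127 with 4-OHT, and Tfeb 22.4 and 18.2 against 19.9 and 23.6. The 4-OHT libraries of Tfe3 were both higher and those of Tfeb overlapped, with edgeR adjusted p of 0.698 and 0.834.

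**Figure D5:**
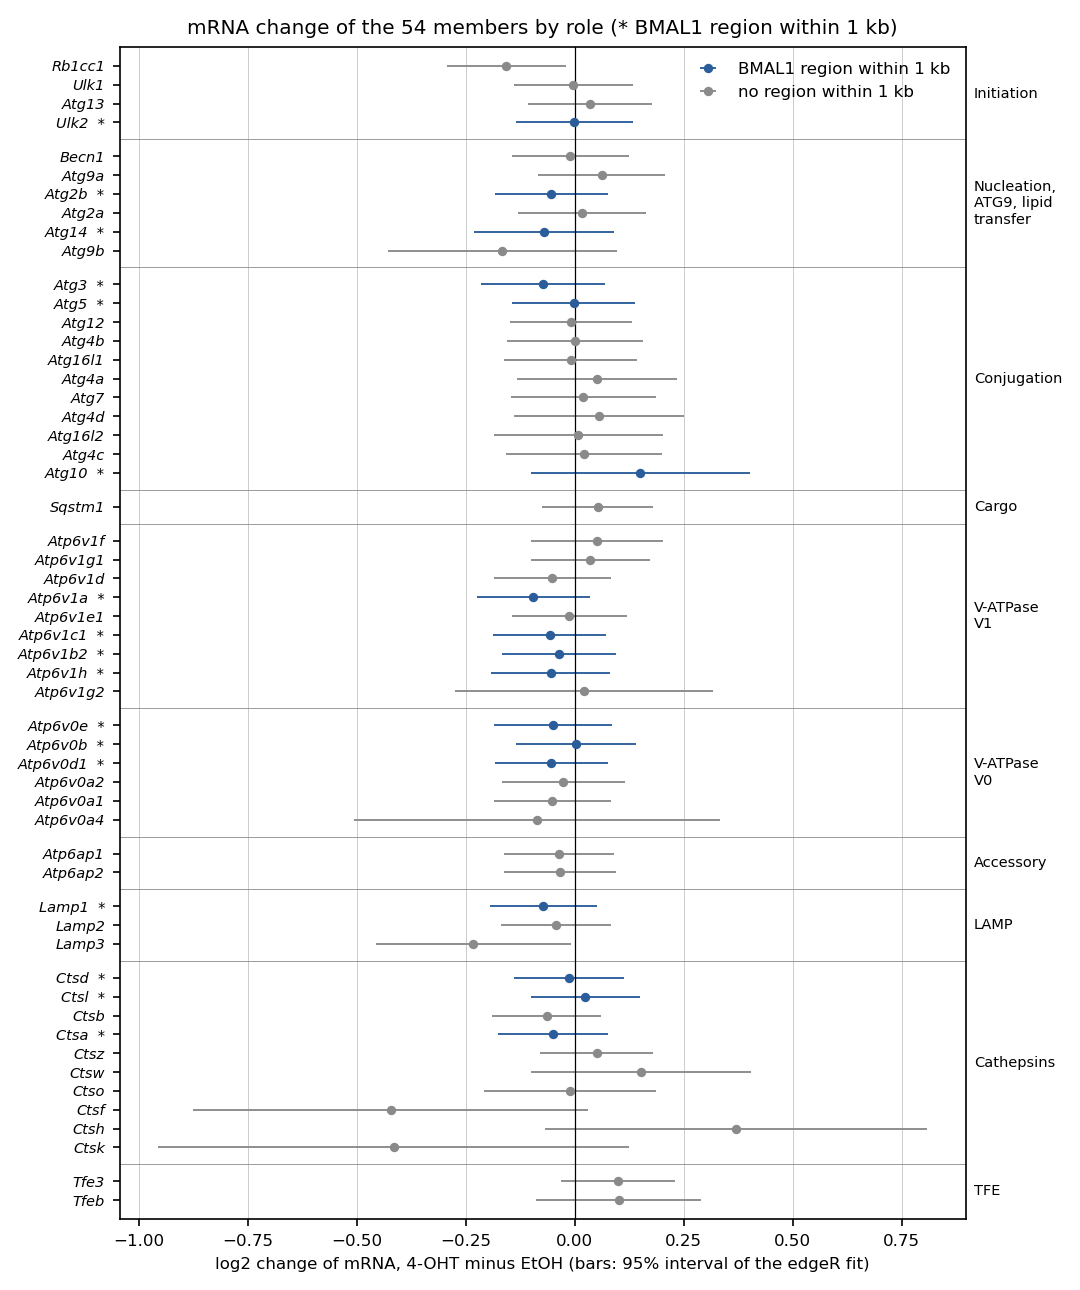
Log2 change of mRNA with 4-OHT for the 54 members by role, with bars for the 95% interval of the edgeR fit, in blue for members with a BMAL1 region within 1 kb and in grey for the others. For 45 of the 54 members the point lies within 0.1 of 0, and the wide intervals belong to members with few reads such as Ctsk, Ctsf, Ctsh and Atp6v0a4.

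In the authors' deposited table of DESeq2 results, 18 members were listed, the 17 bound ones and Sqstm1. All 18 were marked as not significant there, with log2 changes between −0.08 and 0.06 and a lowest DESeq2 adjusted p of 0.912. That table holds 3317 genes, and the share of them marked significant was not counted here. Its log2 changes and SEs can be smaller than those above, as for Atg10 (0.06, SE 0.07, against 0.15, SE 0.12).

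Other genes of the pathway were taken from lists set by function. Of 33 other lysosome genes 18 (54.5%, where 21.5% of tested genes did) had a region within 1 kb, all 18 regions were called lower (background 93.8%), and edgeR called 0 of the 33 mRNAs (background 2.44%), with 0 at an unadjusted p below 0.05 (background 10.1%). Mcoln1, the calcium channel mucolipin-1, had 231 and 206 RP10M with EtOH and 40.8 and 49.2 with 4-OHT, beside an mRNA log2 change of −0.04. Hexa, a hexosaminidase subunit, and Cd63, a membrane tetraspanin, had log2 changes of signal of −2.16 and −1.85 and of mRNA of −0.06 and −0.05. Of 26 other autophagy genes 5 (19.2%) had a region, 6 of their 7 regions were called lower (background 93.8%), and edgeR called 0 mRNAs (2 at an unadjusted p below 0.05, Nrbf2 and Epg5). The strongest was Bnip3, a mitophagy receptor, at 188 and 210 RP10M with EtOH and 45.8 and 42.0 with 4-OHT, and the others were Gabarap, Uvrag, Calcoco1 and 1700021K19Rik (Rubcn).

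Of 20 genes that control TFEB and mTORC1 at the lysosome, 19 were tested, and 10 of these (52.6%) had a region. All 11 regions were called lower, near the background of 93.8%, the strongest being Lamtor4, a Ragulator subunit, at 254 and 262 RP10M with EtOH and 65.5 and 63.2 with 4-OHT. Fnip2, a partner of folliculin, was the 1 gene called in mRNA in these lists of 33, 26 and 19 tested genes. It was called lower, where the background was 1.63% of 13216 tested genes. It had 116 CPM in each EtOH library and 98.7 and 95.7 with 4-OHT (log2 −0.26, SE 0.06; edgeR adjusted p = 0.0136), and its region had a log2 change of −1.47. Both 4-OHT libraries were below both EtOH libraries, but the call was lost without any of 3 of the 4 libraries (adjusted p = 0.119 when 4-OHT replicate 2 was left out, 0.223 for EtOH replicate 1 and 0.252 for EtOH replicate 2). Rragc and Fnip1 had log2 changes of −0.20 and −0.19 and were not called (edgeR adjusted p = 0.106 and 0.183).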

How the data were processed

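mRNA was measured in 4 libraries, BMAL1 ChIP in 4 and input in 4. Per the file headers, featureCounts v1.5.0-p1 gave the deposited gene counts. The submitters' processing notes name mm10, bedtools 2.25.0 and DESeq2 (no version), and no aligner is named in the sources used here. The authors deposited a count of reads for each library over 4740 regions. The deposited signal table carries RPKM in its name. Its values are RP10M with 5 added, and library totals were taken from it. The caller's fold enrichment (a ratio), −log10 p and q values and score in the deposited region files entered no test. The authors' comparison table holds log2 fold changes, p-values and a test score, per its headers.

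Tests on counts used edgeR 4.0.16 (R 4.3.3; robust quasi-likelihood, Benjamini-Hochberg over all genes or regions, adjusted p below 0.05), genes after its default filter with TMM factors between 0.992 and 1.01, regions with library totals, and ChIP against input over 8 libraries. CPM and RPKM are from kept-gene library sizes times TMM factors. Intervals are 95% from the fit. Alternatives used DESeq2 1.42.0, other scalings, the replicate block, other distances and leaving out a library. Scripts were tested on simulated data. With 2 libraries a group, precision is limited, and the parts of replication and depth in this were not tested. The SE of the log2 mRNA change was 0.060 for Lamp1 (139648 to 199110 reads a library) and 0.067 for Ulk2 (4410 to 6407). It was 0.22 for Ctsf (62 to 73). The 133 genes on more than 1 chromosome or strand were not searched for regions. Any member could be named. Values per library are given for bound members, and in each role for the highest level and the largest changes. Of other lists, genes called and genes with a region could be named, and Nrbf2 and Epg5 were named beyond that rule for their unadjusted p. The members and lists were chosen with earlier results of these data known.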

Additional observations from a re-analysis of the deposited data

How the results depend on the processing

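The count of members called in mRNA was 0 higher and 0 lower with DESeq2, RLE size factors, no filter on low counts and the replicate block. The block on replicate numbers left it at 0 with a lowest adjusted p of 0.935, and same-numbered libraries did not deviate together (correlation −0.17 for mRNA and 0.02 for the regions). With the numbers crossed, an alternative chosen after seeing the data, 1 member was called lower (Rb1cc1), and leaving out a library gave 0 to 1, with the lone library of that group taken to vary like the others. The signs of the uncalled mRNA changes are not firm, since between 6 and 19 of the 54 changed sign when 1 library was left out.

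For the regions the scale decides the count. Called lower were 15 with library totals (14 to 16 with a library left out, 15 with the block, 13 within 500 bp, 20 within 10 kb, 11 without regions shared with another start, the last also chosen after seeing the data), 13 in DESeq2 with library totals, 9 after subtracting the inputs' change, 4 with TMM factors and 4 with DESeq2's own size factors. TMM factors lowered the regions above input from 17 to 4 with EtOH and from 15 to 3 with 4-OHT, by setting the ChIP-to-input shift to about 0. Of the called regions, log2 changes turned positive with TMM factors at Atp6v1a (0.41), Ulk2 (0.41), Atg10 (0.39), Atg5 (0.11) and Atp6v0e (0.11), with DESeq2's own size factors at the same genes (0.43, 0.41, 0.32, 0.051 and 0.28), and after subtracting the inputs at Ulk2 (0.23). The uncalled Atp6v0d1 and Atg2b turned positive too, at 1.02 and 0.53 with TMM factors and 1.11 and 0.38 with DESeq2's own. The calls at Lamp1, Atg3, Atp6v1h and Atp6v0b held under every alternative run, and those at Atp6v1c1, Ctsa, Ctsd, Ctsl and Atg10 under every one that used library totals. The other 6 (Atg14, Atp6v1a, Ulk2, Atg5, Atp6v0e and Atp6v1b2) were not called after subtracting the inputs.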
